A study of Mus musculus with 4 samples.

Results

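The transcripts described here are those of the kinesin motor proteins and the centromere proteins in samples from breast tumours of irradiated and unirradiated mice. The labels call these samples cancer-associated fibroblasts. Members were chosen by name alone: every protein-coding row of the deposited count tables whose symbol starts with Kif and a digit, or with Cenp and a letter. The rule found 60 of 54532 rows, 39 with a Kif name and 21 with a Cenp name, and 3 further rows with such names were of other biotypes and were left out. One of the 39, Kif1bp, is a binding partner of the motor KIF1 and no kinesin itself. By known role the members were sorted into 12 mitotic kinesins (Cenpe, which is a kinesin, included), 13 transport kinesins, 14 other kinesins and 21 centromere proteins, where Cenpe is counted again.

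Poly(A) RNA of 4 libraries was sequenced, 2 irradiated and 2 unirradiated, each pair called A and B. All came from C57BL/6 mice with MMTV-PyMT mammary tumours labelled Dll1 mCherry+, in which a mammary promoter drives the polyoma middle T oncogene. Irradiated tumours had received targeted radiation of 6 Gy, which the labels place at day 6, and unirradiated tumours none, while the titles of both groups carry the mark 6D. The labels call the samples primary breast cancer-associated fibroblasts, and name an antibody to PDGFRa, a fibroblast receptor, for their detection. The labels do not say whether A and B were separate animals, so the p-values describe library-to-library spread only, which could be technical.

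Total counts were 15817969 and 23763830 in irradiated A and B, against 17569515 and 13011489 in unirradiated A and B. Levels are given as CPM, counts scaled to a common library size of 1000000 after TMM normalization, and 1 count was worth 0.0403 to 0.0809 CPM. A fold change is the irradiated over the unirradiated level on the log2 scale from edgeR's quasi-likelihood fit, given with its standard error (SE). "Higher", "rose", "lower" and "fell" are used of genes whose Benjamini-Hochberg adjusted p over all 15961 tested genes was under 0.05. Of all tested genes 66.4% passed, 33.9% higher and 32.5% lower, and their median log2 fold change was -0.00. A share of members near these values therefore says nothing about the members. How many of all genes had groups that did not overlap was not counted, so overlap is given below as description only.

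The label of the cells was set against marker genes. The 15 epithelial markers summed to 8970 and 9320 CPM in irradiated A and B, against 9912 and 9932 CPM in unirradiated A and B, and 3 rose while 9 fell, from Krt19 (log2 fold change 2.71) to Krt5 (log2 fold change -1.48). Removing a trend on gene length over all tested genes left 5 of them higher and 8 lower. With length and GC trends both removed, 6 were higher and 7 lower. The 12 fibroblast markers summed to 1711 and 1725 CPM in irradiated A and B, against 544 and 507 CPM in unirradiated A and B, and 10 of them rose while none fell. Macrophage markers summed to 427 and 428 CPM in irradiated A and B, against 133 and 136 CPM in unirradiated A and B, with 7 of 9 higher and 0 lower, and endothelial markers to 187 and 175 CPM in irradiated A and B, against 83.4 and 86.4 CPM in unirradiated A and B, with 8 of 8 higher. The 8 T and NK cell markers summed to 3.97 and 4.32 CPM in irradiated A and B, against 10.6 and 10.8 CPM in unirradiated A and B, with 5 of the 6 tested lower and 0 higher. The libraries thus held abundant epithelial transcripts beside those of fibroblasts, and no marker of these lists was at 0 in all 4 libraries. The part that this cell makeup has in the values below was not tested, and a change in the number of cells of a type and a change in RNA per cell cannot be told apart in bulk RNA.

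Kinesins are motor proteins that use ATP to walk along microtubules or to take them apart at their ends. One set builds and moves the mitotic spindle and completes the division of the cell, and is made mostly in dividing cells. Another carries vesicles, organelles and the material of cilia through the cell between divisions. Centromere proteins mark the place on each chromosome where the kinetochore is built, the structure that ties chromosomes to spindle microtubules. Genes of mitosis often carry in their promoters a short element called the CHR, which the MuvB complexes bind, and a CCAAT box, which NF-Y binds.

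Of the 56 members tested, 25 were higher in irradiated libraries, 11 were lower and 20 passed neither way, and the median of their log2 fold changes was 0.21. With a trend on gene length over all tested genes removed, 22 were higher and 17 lower. The share that passed in either direction was 64.3%, beside 66.4% of all tested genes. The mitotic kinesins taken by the name rule moved in a single direction: 12 of 12 were higher, beside 33.9% of all tested genes. Their median was 0.72 and their range 0.29 to 1.04. After removal of the length trend 10 were higher and 0 lower. The spindle kinesin Kifc1, whose name the rule does not take, did not pass (log2 fold change -0.02, adjusted p = 0.833). The transport kinesins went both ways, with 5 of 13 higher, 5 lower and 3 not passing, and a median of 0.05. These shares, 38.5% each way, are near the 33.9% higher and 32.5% lower of all tested genes. The split was uneven once the length trend was removed, with 4 of 13 higher and 8 lower, beside 4707 higher and 5352 lower of all tested genes. Of the 21 centromere proteins 4 were higher, 4 lower and 13 did not pass, with a median of 0.01. The share that passed was 38.1%, beside 66.4% of all tested genes. A gene that did not pass is not shown to be unchanged: among these 13 the SE ran from 0.04996 (Cenpb) to 0.204 (Cenpu). Whether these lists differ from each other was not tested as such.

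**Figure D1:**
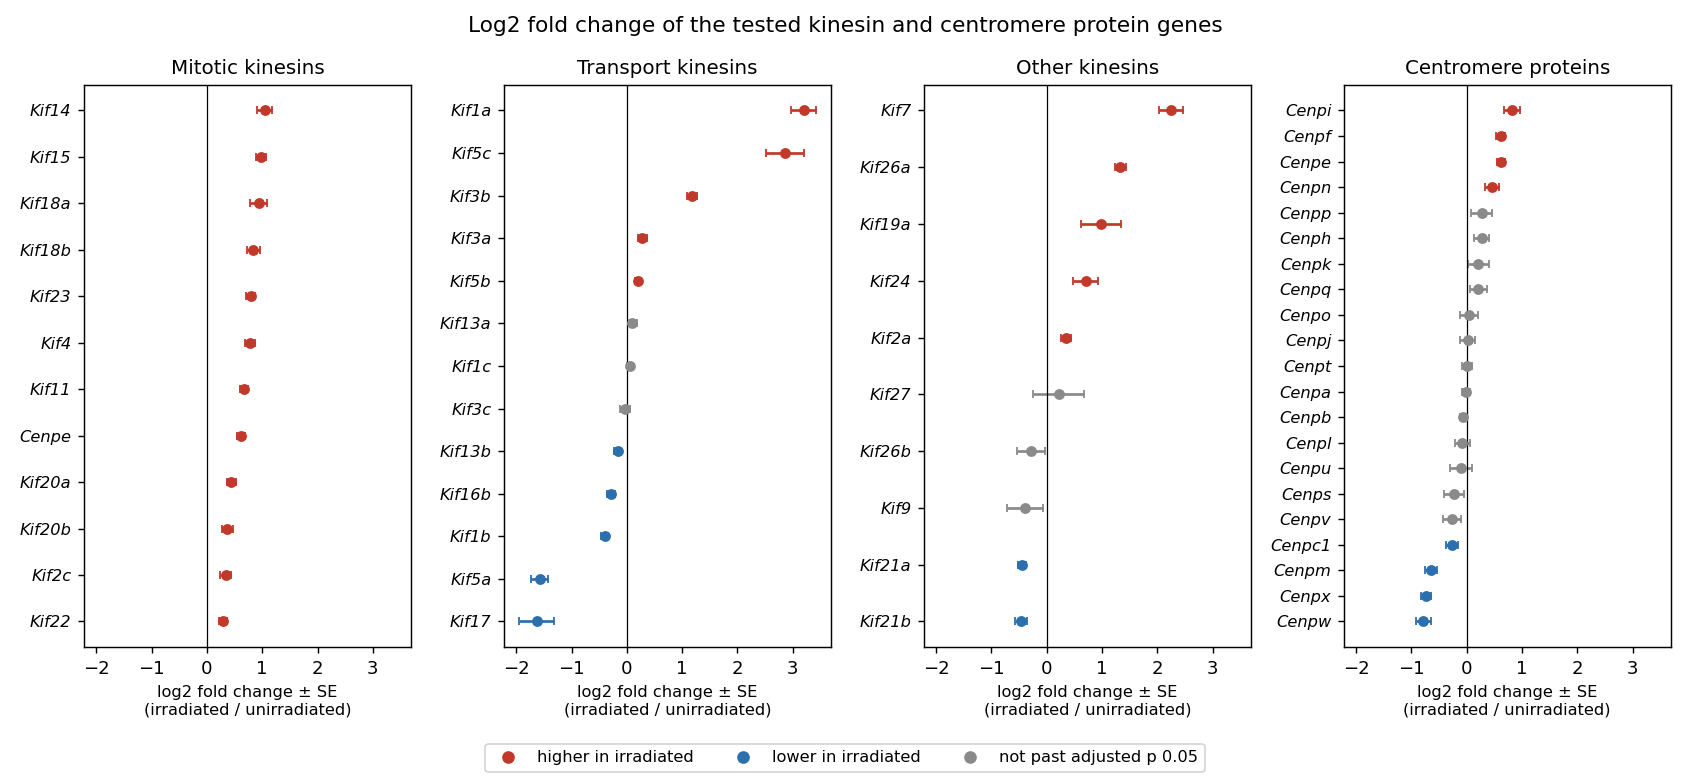
Log2 fold change (irradiated over unirradiated) of each tested kinesin and centromere protein, by role, with bars of 1 SE; red and blue points passed an adjusted p of 0.05 as higher and lower, grey points did not, and Kif1bp is not drawn. All 12 mitotic kinesins lie above 0, between 0.29 and 1.04, while transport kinesins reach from -1.63 to 3.20.

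The summed level of the 12 mitotic kinesins was 474.5 and 466.6 CPM in irradiated A and B, against 304.6 and 302.2 CPM in unirradiated A and B, a ratio of 1.55. The 13 transport kinesins summed to 900.4 and 872 CPM in irradiated A and B, against 826 and 871 CPM in unirradiated A and B, a ratio of 1.04. The sum of the mitotic set thus stood apart between the groups by far more than the libraries of a group differed, whereas irradiated B and unirradiated B had nearly the same sum of transport kinesins.

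Promoter sequence was read for 53 of the 60 members from RefSeq, in windows of 250 bases before to 50 bases after the annotated start on GRCm38.p6, the assembly that mm10 is made from. Kif5a, Kif5b, Kif13b, Kif19a, Kif20a, Kif21b and Kif28 had no entry. The first set of sequences shows the 100 bases before the start of Kif11, Kif1a and Cenpi, of which Kif1a and Cenpi had the largest change of the transport kinesins and the centromere proteins. Kif11 was picked, with its sequence seen, as a mitotic kinesin that holds both elements, and 6 mitotic kinesins changed more. Capitals mark a CCAAT box (CCAAT, or ATTGG where it reads on the other strand) and the CHR (TTTGAA, or TTCAAA on the other strand).
Kif11, chr19:37376282-37376381, plus strand: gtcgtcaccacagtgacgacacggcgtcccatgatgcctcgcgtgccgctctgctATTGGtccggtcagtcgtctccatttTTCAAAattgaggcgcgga
Kif1a, chr1:93101952-93102051, minus strand: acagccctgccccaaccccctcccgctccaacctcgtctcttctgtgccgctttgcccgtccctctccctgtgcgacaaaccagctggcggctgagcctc
Cenpi, chrX:134307984-134308083, plus strand: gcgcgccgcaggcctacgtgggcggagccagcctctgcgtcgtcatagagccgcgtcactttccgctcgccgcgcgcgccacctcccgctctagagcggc
The Kif11 stretch holds both elements, the CHR close to the start, and the other stretches hold neither. The 100 bases of Kif1a end 77 bases upstream of its RefSeq start, at the 5′ end of the deposited gene. Kif14 and Kif2c have RefSeq starts 1505 and 3867 bases inside the deposited gene, and their windows are not printed for that reason.

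The letters TTTGAA occurred on either strand in the windows of 9 of 11 mitotic kinesins (81.8%), against 1 of 10 transport kinesins and 20.2% of the 27025 genes with a window. Of the centromere proteins 5 of 21 (23.8%) held it. With windows limited to those within 500 bases of the deposited 5′ end, 7 of 9 mitotic kinesins held it, against 0 of 9 transport kinesins, 5 of 19 centromere proteins and 15.8% of 16728 genes. The related letters TTTAAA were in 3 of 11 mitotic kinesins, 5 of 21 centromere proteins and 14.9% of all. CCAAT was found in 7 of 11 mitotic kinesins (63.6%), in 14 of 21 centromere proteins (66.7%) and in 3 of 10 transport kinesins, against 41.1% of all. An E2F spelling (TTTCCCGC, TTTGGCGC or TTTCGCGC) was in 2 of 11 mitotic kinesins and 4 of 21 centromere proteins, against 2.12% of all. These are matches of letters on both strands, which may overlap each other, and no binding was measured.

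The sites themselves are shown with flanks, 30 bases each, because they let the mitotic kinesins be set beside the centromere proteins that hold the same letters. Capitals mark TTTGAA or its reverse TTCAAA, and each sequence is given on the strand of its gene.
Kif11, chr19:37376351-37376380: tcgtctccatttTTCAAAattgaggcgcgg
Kif15, chr9:122951050-122951079: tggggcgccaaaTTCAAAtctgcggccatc
Kif22, chr7:127042420-127042449: gggccccggtaaTTCAAAagagagaagcgg
Kif18b, chr11:102925104-102925133: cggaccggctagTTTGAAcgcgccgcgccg
Kif23, chr9:61946780-61946809: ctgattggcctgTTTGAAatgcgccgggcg
Kif4, chrX:100626072-100626101: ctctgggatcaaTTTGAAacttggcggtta
Kif20b, chr19:34922353-34922382: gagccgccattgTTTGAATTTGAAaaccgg
Cenpf, chr1:189688067-189688096: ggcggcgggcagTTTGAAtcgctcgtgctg
Cenpn, chr8:116921719-116921748: gccattggcggcTTCAAAagcacctcggcg
Cenpl, chr1:161070593-161070622: acagctctgaggTTCAAAcccagacacaaa
Cenpa, chr5:30666890-30666919: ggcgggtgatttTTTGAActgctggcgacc
Cenpw, chr10:30200548-30200577: tccggcggccaaTTCAAAtcgaccactcgg
Kif20b holds the 6 letters in tandem, and in Cenpw they overlap a CCAAT box. Kif15 and Kif22 each hold a further copy upstream that is not printed, with its first base at -234 and -215 from the RefSeq start. The Cenpl site begins at -162, while the other printed sites begin between -25 and 20. The 7 kinesins shown were all higher in irradiated libraries, as were Kif18a and Cenpe, whose windows do not hold these letters. Of the 5 centromere proteins shown Cenpf and Cenpn rose, Cenpl and Cenpa did not pass and Cenpw fell.

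Among the motors that push the spindle poles apart, Kif11 and Kif15 were both higher. Kif11, the tetrameric motor that makes the spindle bipolar, had 85.03 and 82.0 CPM in irradiated A and B, against 54.1 and 50.2 CPM in unirradiated A and B (log2 fold change 0.67, SE 0.0655, adjusted p = 5.32e-14). Kif15, which holds a bipolar spindle open beside Kif11, had 38.4 and 37.0 CPM in irradiated A and B, against 20.6 and 17.2 CPM in unirradiated A and B (log2 fold change 0.98, SE 0.0955, adjusted p = 5.29e-14). Both irradiated libraries lay above both unirradiated ones for each gene, with gaps several times the spread of a pair. Kif11 lies at chr19:37376403-37421859 on the plus strand and Kif15 at chr9:122951046-123018733 on the plus strand in mm10.

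The motors of chromosome arms and plus ends rose by unequal amounts. Kif4, a chromokinesin that shortens the central spindle and shapes chromosome arms, had 36.0 and 38.5 CPM in irradiated A and B, against 20.4 and 23.5 CPM in unirradiated A and B (log2 fold change 0.78, SE 0.0925). Kif22, the other chromokinesin, pushes chromosome arms away from the poles, and had 41.6 and 45.3 CPM in irradiated A and B, against 35.1 and 36.3 CPM in unirradiated A and B (log2 fold change 0.29, SE 0.0794, adjusted p = 0.00104). This was the smallest change of the 12. Kif4 overlaps Pdzd11 on the opposite strand over 15.1% of its length, and the library kit did not mark strand. Pdzd11 itself was at 17.1 CPM in irradiated and 22.5 CPM in unirradiated libraries. Reads of the pseudogenes Kif4-ps and Kif22-ps could be shared with Kif4 and Kif22.

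Kif18a, a motor that damps chromosome movement at the metaphase plate, had 12.8 and 13.2 CPM in irradiated A and B, against 6.92 and 6.63 CPM in unirradiated A and B (log2 fold change 0.94, SE 0.154). Its relative Kif18b, which shortens astral microtubules, had 26.2 and 23.1 CPM in irradiated A and B, against 15.5 and 11.4 CPM in unirradiated A and B (log2 fold change 0.84, SE 0.117). Kif2c, the depolymerase that corrects wrong kinetochore attachments, had 29.2 and 32.7 CPM in irradiated A and B, against 24.9 and 24.4 CPM in unirradiated A and B (log2 fold change 0.34, SE 0.0928, adjusted p = 0.00116). The groups did not overlap in any of these genes, but Kif2c rested on irradiated B: without it the log2 fold change was 0.25 with an adjusted p of 0.0638. Cenpe, the large kinetochore motor that walks chromosomes to the spindle equator, had 60.7 and 59.6 CPM in irradiated A and B, against 38.5 and 40.3 CPM in unirradiated A and B (log2 fold change 0.61, SE 0.0727).

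The motors of the midbody and cleavage furrow include the largest change of the set. Kif14, which anchors citron kinase at the midbody, had 20.8 and 17.1 CPM in irradiated A and B, against 9.01 and 9.14 CPM in unirradiated A and B (log2 fold change 1.04, SE 0.135, adjusted p = 6.47e-10). Kif23, the motor subunit of the centralspindlin complex, had 56.5 and 53.4 CPM in irradiated A and B, against 31.0 and 32.4 CPM in unirradiated A and B (log2 fold change 0.79, SE 0.0778). Its partner Racgap1 had 101 and 95.7 CPM in irradiated A and B, against 73.3 and 66.1 CPM in unirradiated A and B (log2 fold change 0.49, SE 0.0617). Both subunits of centralspindlin thus rose. Kif20a, which brings the chromosomal passenger complex to the central spindle, had 36.0 and 35.9 CPM in irradiated A and B, against 25.7 and 27.4 CPM in unirradiated A and B (log2 fold change 0.44, SE 0.0876). Kif20b, a slow motor of late cytokinesis, had 31.2 and 28.8 CPM in irradiated A and B, against 23.0 and 23.3 CPM in unirradiated A and B (log2 fold change 0.37, SE 0.0943, adjusted p = 0.000496). Kif20a shares 33.5% of its length with Cdc23 on the opposite strand, which was at 49.5 CPM in irradiated and 35.4 CPM in unirradiated libraries, so reads of the overlap cannot be assigned.

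**Figure D2:**
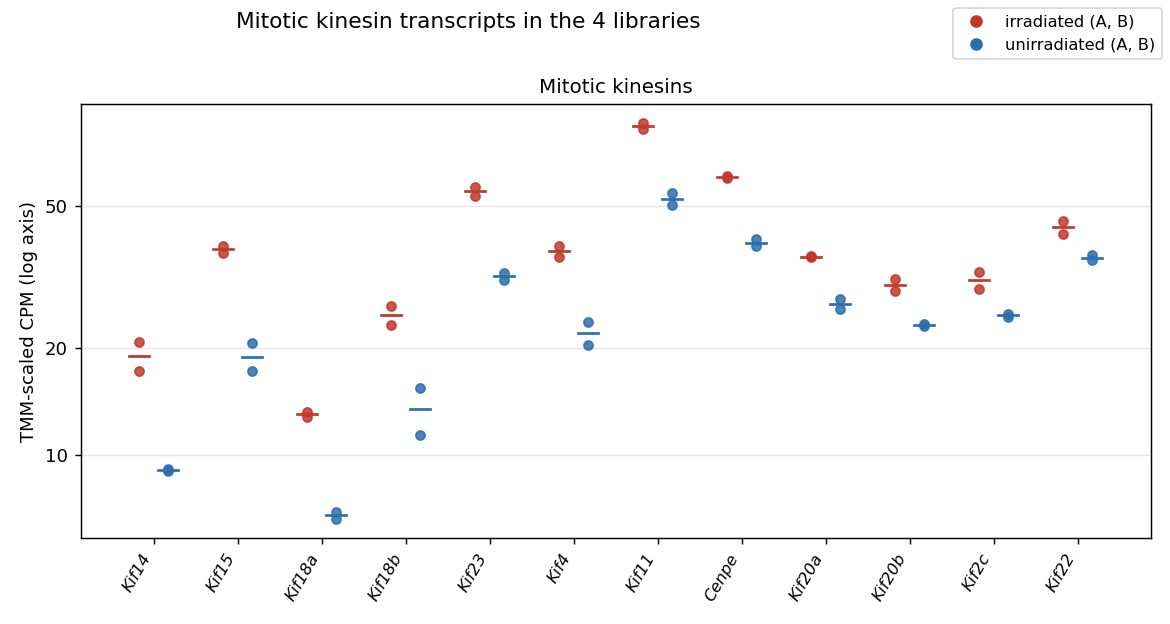
TMM-scaled CPM (log axis) of the 12 mitotic kinesins in each irradiated (left) and unirradiated (right) library, with the mean as a short line. In every gene both irradiated points lie above both unirradiated points, and the gap is widest in Kif14 and narrowest in Kif22. The share of all genes that separate in this way was not counted.

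The transport kinesins held the largest changes of all members, and in families of close relatives they ran in opposite directions. In the kinesin-1 family, whose heavy chains carry vesicles and mitochondria, Kif5c had 5.17 and 4.92 CPM in irradiated A and B, against 0.776 and 0.566 CPM in unirradiated A and B (log2 fold change 2.86, SE 0.344, adjusted p = 7e-11). Kif5a, like Kif5c known best from neurons, had 5.83 and 4.88 CPM in irradiated A and B, against 15.5 and 16.1 CPM in unirradiated A and B (log2 fold change -1.58, SE 0.154, adjusted p = 5.13e-14). Neither pair of groups overlapped. The widely expressed Kif5b had 220.4 and 220.8 CPM in irradiated A and B, against 188 and 196 CPM in unirradiated A and B (log2 fold change 0.20, SE 0.0472, adjusted p = 0.00017). Per kilobase of gene length Kif5b stood at 29.8 CPM in irradiated and 26.0 CPM in unirradiated libraries, against 0.766 CPM in irradiated and 2.26 CPM in unirradiated libraries for Kif5a and 0.707 CPM in irradiated and 0.0939 CPM in unirradiated libraries for Kif5c. Kif5b was thus by far the main transcript of the family in both groups. Kif5c counts were 86 and 122 in irradiated A and B, against 13 and 7 in unirradiated A and B, and it passed the filter on low counts through the irradiated libraries alone.

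In the kinesin-2 family, whose Kif3a and Kif3b form with Kifap3 the motor that builds cilia, Kif3b had 49.6 and 46.1 CPM in irradiated A and B, against 22.1 and 19.8 CPM in unirradiated A and B (log2 fold change 1.18, SE 0.0883, adjusted p = 1.31e-18). Kif3a changed less, with 41.8 and 43.6 CPM in irradiated A and B, against 36.4 and 33.7 CPM in unirradiated A and B (log2 fold change 0.28, SE 0.0797, adjusted p = 0.00169). Kifap3, the non-motor subunit, had 35.4 and 33.5 CPM in irradiated A and B, against 15.6 and 22.2 CPM in unirradiated A and B (log2 fold change 0.89, SE 0.104). The 3 subunits of the heterotrimer were thus all higher. Kif3c, which can take the place of Kif3b, had 30.9 and 29.0 CPM in irradiated A and B, against 30.3 and 30.7 CPM in unirradiated A and B, with overlapping groups (log2 fold change -0.03, adjusted p = 0.775). Kif17, a homodimeric motor of dendrites and cilia, had 1.08 and 1.21 CPM in irradiated A and B, against 3.10 and 4.29 CPM in unirradiated A and B (log2 fold change -1.63, SE 0.319, adjusted p = 9.36e-06), a fall that differed from that of Kif5a by less than its SE.

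The kinesin-3 family carries synaptic vesicle precursors, endosomes and other membranes. Kif1a, the motor of synaptic vesicle precursors in neurons, had 14.9 and 13.7 CPM in irradiated A and B, against 1.37 and 1.78 CPM in unirradiated A and B (log2 fold change 3.20, SE 0.220, adjusted p = 2.67e-20). This 9.16-fold difference was the largest of the 56 members tested, and the gene lies at chr1:93015464-93101951 on the minus strand. Kif1b, which carries mitochondria and synaptic vesicle precursors, had 74.7 and 65.9 CPM in irradiated A and B, against 91.9 and 92.6 CPM in unirradiated A and B (log2 fold change -0.40, SE 0.0623, adjusted p = 8.4e-08). The endosome motor Kif16b had 62.5 and 55.6 CPM in irradiated A and B, against 68.2 and 75.2 CPM in unirradiated A and B (log2 fold change -0.28, SE 0.0676, adjusted p = 0.000215). So one close relative of Kif1a moved the other way.

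Kif13b had 58.2 and 51.9 CPM in irradiated A and B, against 58.8 and 64.7 CPM in unirradiated A and B (log2 fold change -0.17, SE 0.0700, adjusted p = 0.0301). That call was lost with DESeq2, without either B library and with no filter on low counts. Kif13a, a motor of recycling endosomes, had 47.4 and 44.2 CPM in irradiated A and B, against 39.0 and 47.2 CPM in unirradiated A and B (log2 fold change 0.10, adjusted p = 0.275). Kif1c had 288 and 290.4 CPM in irradiated A and B, against 270.3 and 289 CPM in unirradiated A and B (log2 fold change 0.05, adjusted p = 0.318). Groups overlapped in Kif13a and Kif1c, and Kif13a passed as higher without unirradiated B (log2 fold change 0.23, adjusted p = 0.0269) and as lower with the length trend removed (log2 fold change -0.18, adjusted p = 0.0401). Kif1c carries the highest level of all members per kilobase, 39.7 CPM in irradiated and 38.4 CPM in unirradiated libraries. Kif1bp, which binds kinesin-3 and other motors, had 23.9 and 25.7 CPM in irradiated A and B, against 26.3 and 25.6 CPM in unirradiated A and B (log2 fold change -0.06, adjusted p = 0.604).

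Several of the changed transport motors are best known from nerve cells, so nerve and Schwann cell markers are given beside them. The 11 markers summed to 536 and 537 CPM in irradiated A and B, against 608 and 625 CPM in unirradiated A and B, and 1 was higher and 4 were lower of the 6 tested. Sox10 made up most of this sum, at 375 CPM in irradiated and 475 CPM in unirradiated libraries. The neuronal markers went both ways. Map2 was at 102 CPM in irradiated and 64.0 CPM in unirradiated libraries (log2 fold change 0.67), and was the marker that was higher. Tubb3 was at 1.24 CPM in irradiated and 5.04 CPM in unirradiated libraries (log2 fold change -2.07). Snap25, Syp, Stmn2 and Nefl were under 1 CPM in every library. Markers of multiciliated cells, set beside Kif3a and Kif3b, summed to 20.9 and 19.9 CPM in irradiated A and B, against 17.5 and 18.6 CPM in unirradiated A and B, with 1 higher and 0 lower of the 4 tested. Their part in the results was not tested.

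**Figure D3:**
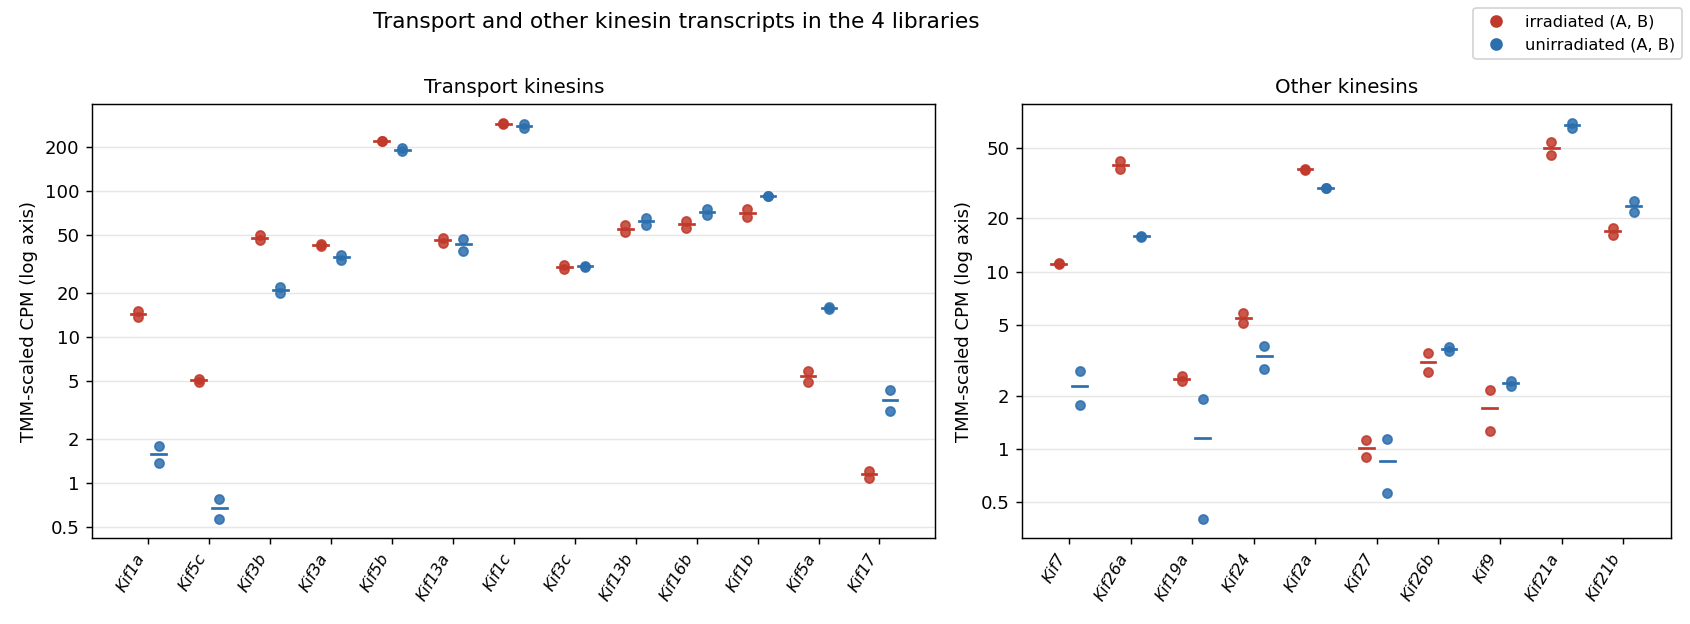
TMM-scaled CPM (log axis) of transport and other kinesins in each irradiated (left) and unirradiated (right) library, with the mean as a short line. Kif1a, Kif5c and Kif7 lie far higher in irradiated libraries and Kif5a and Kif17 lower, while Kif1c and Kif3c overlap.

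Of the 14 other kinesins 10 were tested, and 5 were higher, 2 lower and 3 did not pass, with a median of 0.28. Kif7, the cilium tip protein that regulates Gli factors of the Hedgehog pathway, had 11.005 and 11.2 CPM in irradiated A and B, against 2.74 and 1.78 CPM in unirradiated A and B (log2 fold change 2.25, SE 0.213, adjusted p = 1.71e-14). Kif7 overlaps Ticrr over 1.11% and a noncoding gene of the opposite strand over 19.1% of its length, and the noncoding gene was at 0.0807 CPM in irradiated and 0 CPM in unirradiated libraries. Kif26a, an atypical kinesin without motor activity that restrains Ret signalling in mouse enteric neurons, had 41.9 and 37.8 CPM in irradiated A and B, against 15.7 and 15.9 CPM in unirradiated A and B (log2 fold change 1.33, SE 0.0980, adjusted p = 6.72e-19). Kif26b, its paralogue, had 3.49 and 2.70 CPM in irradiated A and B, against 3.76 and 3.56 CPM in unirradiated A and B (log2 fold change -0.28, adjusted p = 0.332).

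Among microtubule depolymerases, Kif2a had 37.9 and 37.6 CPM in irradiated A and B, against 29.8 and 29.4 CPM in unirradiated A and B (log2 fold change 0.35, SE 0.0841, adjusted p = 0.000241), and shares 19.2% of its length with Dimt1 on the opposite strand. Kif24, which trims microtubules at the mother centriole, had 5.11 and 5.81 CPM in irradiated A and B, against 3.82 and 2.83 CPM in unirradiated A and B (log2 fold change 0.70, SE 0.228, adjusted p = 0.00584). The Kif24 call was lost with DESeq2 (adjusted p = 0.0604), without either B library and with the length trend removed (log2 fold change 0.42, adjusted p = 0.104). Kif19a, which limits the length of motile cilia, had 2.41 and 2.58 CPM in irradiated A and B, against 1.91 and 0.405 CPM in unirradiated A and B (log2 fold change 0.98, SE 0.366, adjusted p = 0.0160). The unirradiated libraries differ widely from each other here: without unirradiated B the log2 fold change was 0.40 with an adjusted p of 0.348, without irradiated B 0.93 with an adjusted p of 0.0760, with DESeq2 1.07 with an adjusted p of 0.115, and without unirradiated A 2.61. Like Kif5c, Kif19a and Kif27 passed the filter on low counts through the irradiated libraries.

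The kinesin-4 motors Kif21a and Kif21b, which restrain microtubule growth, were both lower. Kif21a had 53.5 and 45.8 CPM in irradiated A and B, against 68.5 and 64.9 CPM in unirradiated A and B (log2 fold change -0.44, SE 0.0707, adjusted p = 1.61e-07). Kif21b had 17.7 and 16.2 CPM in irradiated A and B, against 21.7 and 25.1 CPM in unirradiated A and B (log2 fold change -0.46, SE 0.108, adjusted p = 0.000154). Kif9 had 1.26 and 2.14 CPM in irradiated A and B, against 2.27 and 2.43 CPM in unirradiated A and B (log2 fold change -0.39, adjusted p = 0.292). Kif27, a paralogue of Kif7, was near 1 CPM in all libraries and did not pass. The 4 kinesins below the filter were Kif12, with 0 counts in every library, Kif2b with 1 count in all, and Kif6 and Kif28 with at most 10 counts in a library. A count of 0 allows a level of up to 0.121 to 0.243 CPM (3 counts), by library and for counting error only.

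The centromere proteins bind DNA, each other and the outer kinetochore. Cenpa, the histone H3 variant that marks the centromere, had 48.3 and 51.9 CPM in irradiated A and B, against 47.8 and 54.4 CPM in unirradiated A and B (log2 fold change -0.01, SE 0.0733, adjusted p = 0.875). Cenpb, which binds a box in centromere satellite DNA, had 159.8 and 171.4 CPM in irradiated A and B, against 172 and 178 CPM in unirradiated A and B (log2 fold change -0.08, SE 0.04996, adjusted p = 0.174). Cenpc1, the protein that links CENP-A nucleosomes to the kinetochore, had 16.6 and 19.0 CPM in irradiated A and B, against 22.8 and 20.1 CPM in unirradiated A and B (log2 fold change -0.27, SE 0.109, adjusted p = 0.0276). In the edgeR fit described above the core of the centromere thus showed no called change but that of Cenpc1. That call was lost with DESeq2, without either A library and with no filter on low counts. Cenpb passed as lower with upper-quartile scaling (log2 fold change -0.12, adjusted p = 0.0357). Both Cenpb and Cenpa passed as lower with the length trend removed (log2 fold change -0.21 and -0.20).

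Of the 15 Cenp-named proteins of the constitutive centromere network, the inner kinetochore that sits on CENP-A, 2 were higher, 4 lower and 9 did not pass, and changes in opposite directions occurred within one complex. Cenpi, a large scaffold of the HIKM complex, had 15.3 and 14.7 CPM in irradiated A and B, against 8.35 and 8.66 CPM in unirradiated A and B (log2 fold change 0.82, SE 0.141, adjusted p = 8.05e-07). Cenpm, a small member of the same complex, had 13.7 and 13.5 CPM in irradiated A and B, against 22.5 and 19.7 CPM in unirradiated A and B (log2 fold change -0.65, SE 0.115, adjusted p = 1.45e-06). Cenph and Cenpk, the other members, did not pass. Cenpk had 7.22 and 6.58 CPM in irradiated A and B, against 5.37 and 6.63 CPM in unirradiated A and B (log2 fold change 0.21, adjusted p = 0.326). Cenph had 15.1 CPM in both irradiated libraries, against 10.9 and 14.7 CPM in unirradiated A and B (log2 fold change 0.27, adjusted p = 0.0686), and passed without unirradiated B (log2 fold change 0.48, adjusted p = 0.00515).

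Cenpn, which reads the CENP-A nucleosome, had 15.9 and 15.2 CPM in irradiated A and B, against 11.6 and 10.9 CPM in unirradiated A and B (log2 fold change 0.45, SE 0.130, adjusted p = 0.00190). Its partner Cenpl had 11.2 and 11.6 CPM in irradiated A and B, against 12.2 and 11.97 CPM in unirradiated A and B (log2 fold change -0.08), and did not pass. Cenpo, Cenpp, Cenpq and Cenpu, which form a complex with CENP-R, did not pass, with log2 fold changes from -0.11 to 0.27. CENP-R, listed as Itgb3bp and not taken by the name rule, had 3.97 and 3.75 CPM in irradiated A and B, against 6.86 and 6.31 CPM in unirradiated A and B (log2 fold change -0.79, SE 0.206, adjusted p = 0.000715). Cenpo had 7.76 and 9.28 CPM in irradiated A and B, against 9.31 and 7.20 CPM in unirradiated A and B, and Cenpp had 6.07 and 7.34 CPM in irradiated A and B, against 6.14 and 5.02 CPM in unirradiated A and B. Cenpq had 10.4 and 10.5 CPM in irradiated A and B, against 9.13 and 8.98 CPM in unirradiated A and B, and Cenpu had 5.53 and 4.92 CPM in irradiated A and B, against 5.07 and 6.23 CPM in unirradiated A and B. Groups overlapped in Cenpo, Cenpp and Cenpu. Opposite-strand overlaps cover 19.0% of Cenpo with Adcy3, 26.7% of Cenpu with Primpol and 12.3% of Cenpp with Ippk, so these levels are uncertain. Ippk stood far above Cenpp, at 37.9 CPM in irradiated and 38.7 CPM in unirradiated libraries.

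In the TWSX complex of histone-fold proteins, Cenpw had 7.28 and 9.89 CPM in irradiated A and B, against 14.8 and 15.6 CPM in unirradiated A and B (log2 fold change -0.78, SE 0.142, adjusted p = 2.34e-06). Cenpx, which also works with Cenps in DNA crossover repair, had 21.0 and 21.7 CPM in irradiated A and B, against 36.3 and 34.8 CPM in unirradiated A and B (log2 fold change -0.74, SE 0.0906, adjusted p = 1.47e-10). Cenps had 5.65 and 6.94 CPM in irradiated A and B, against 7.87 and 7.04 CPM in unirradiated A and B (log2 fold change -0.23, adjusted p = 0.26), and Cenpt had 28.6 and 29.5 CPM in irradiated A and B, against 28.4 and 29.5 CPM in unirradiated A and B (log2 fold change 0.01). In this complex no member rose.

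Of the outer kinetochore, Cenpf, a very large coiled-coil protein that holds dynein and other factors at kinetochores, had 44.0 and 43.3 CPM in irradiated A and B, against 26.5 and 31.0 CPM in unirradiated A and B (log2 fold change 0.61, SE 0.0845, adjusted p = 3.65e-09). Together with Cenpe it rose. Cenpj, a centriole assembly protein that carries a Cenp name, had 13.8 and 11.3 CPM in irradiated A and B, against 11.8 and 12.6 CPM in unirradiated A and B (log2 fold change 0.02), and Cenpv had 7.04 and 7.38 CPM in irradiated A and B, against 7.93 and 9.71 CPM in unirradiated A and B (log2 fold change -0.26, adjusted p = 0.16).

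**Figure D4:**
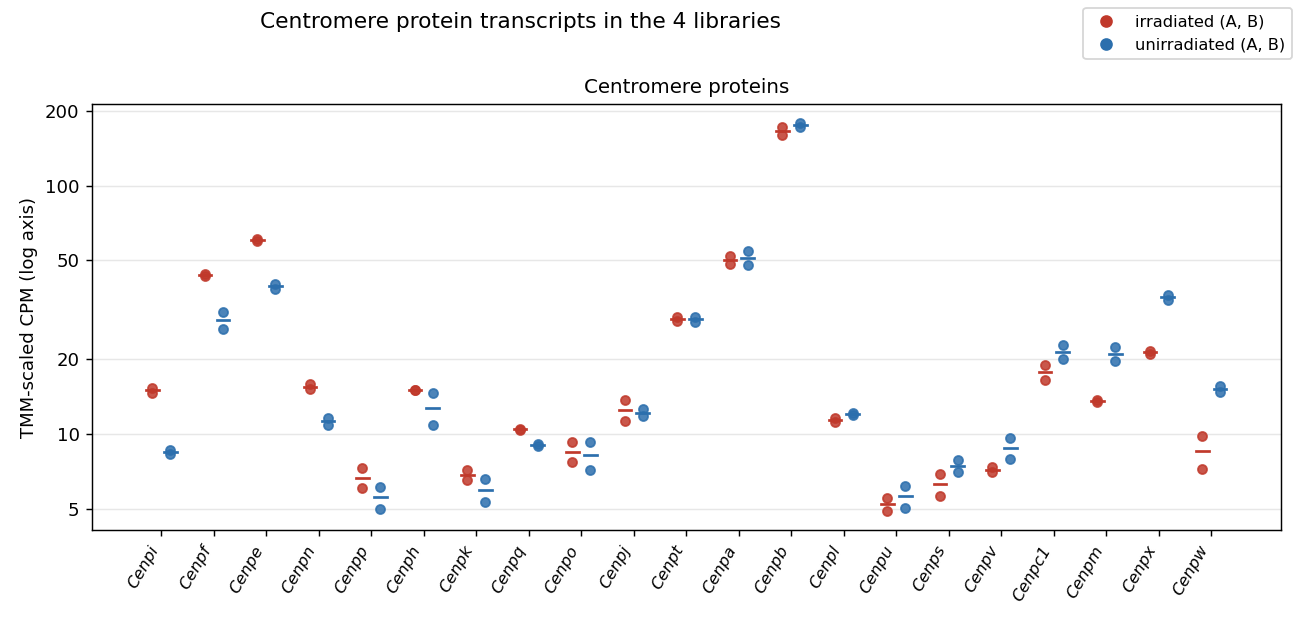
TMM-scaled CPM (log axis) of the 21 centromere proteins in each irradiated (left) and unirradiated (right) library, with the mean as a short line, in order of log2 fold change. Cenpi, Cenpf, Cenpe and Cenpn lie higher in irradiated libraries and Cenpc1, Cenpm, Cenpx and Cenpw lower, while Cenpa and Cenpt overlap.

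Gene length moved with the results across the whole series. Of tested genes under 2000 bases, 13.4% rose and 46.7% fell (median -0.42), whereas of those of 8000 bases and over 54.5% rose and 19.2% fell (median 0.25). The 4 centromere proteins that rose had a median length of 7150.5 bases and the 4 that fell 2914 bases, and Cenpx (1077 bases) and Cenpm (1617 bases) are among the shortest members. With the trend on length removed from the fold changes, Cenpx was at -0.30 and Cenpm at -0.36, and both were still lower. Cenpw, of 4211 bases, was at -0.87. Of the 12 mitotic kinesins 10 were still higher: Kif20b (log2 fold change 0.13, adjusted p = 0.232) and Kif22 (log2 fold change 0.16, adjusted p = 0.0715) no longer passed. Kif14, Kif15 and Kif18a are also long, at 10358, 11020 and 9832 bases. Kif5b changed sign to -0.06 (adjusted p = 0.276) and Kif2a fell short at 0.14 (adjusted p = 0.158). Cenpa (log2 fold change -0.20, adjusted p = 0.0158), Kif1c (log2 fold change -0.20), Cenpb (log2 fold change -0.21), Kif3c (log2 fold change -0.29), Kif26b (log2 fold change -0.66) and Kif13a (log2 fold change -0.18) passed as lower with the trend removed. Cenph (log2 fold change 0.52) and Cenpq (log2 fold change 0.33) passed as higher, and Kif24 (log2 fold change 0.42) no longer passed. The trend's cause was not tested.

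**Figure D5:**
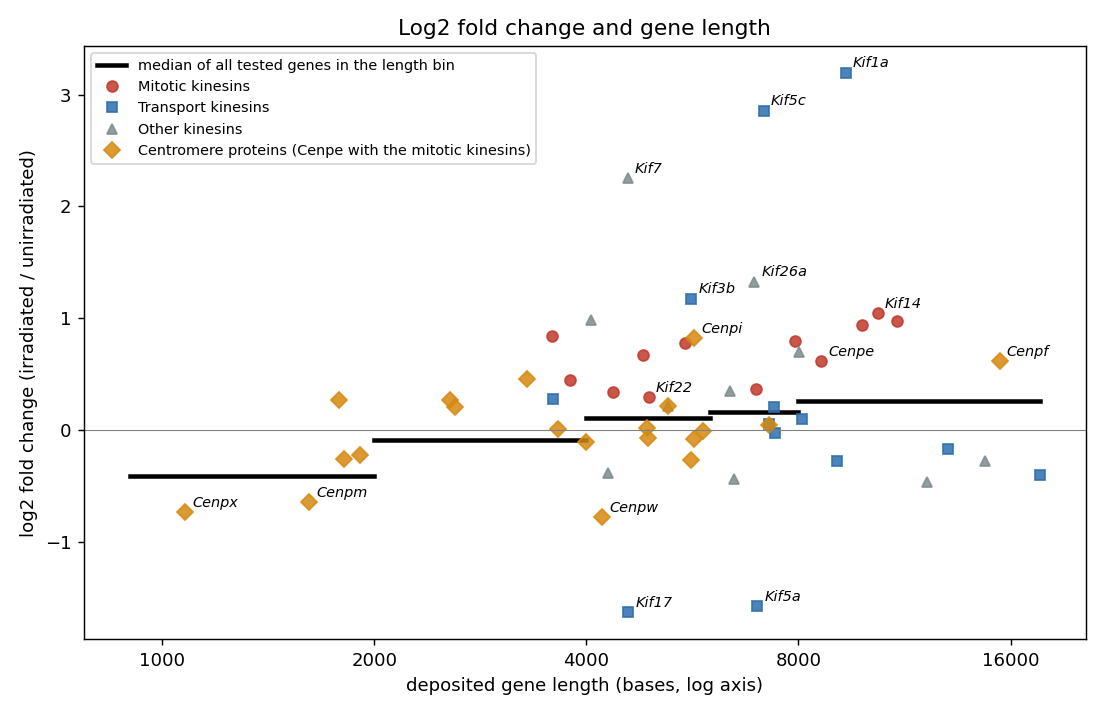
Log2 fold change (irradiated over unirradiated) of tested members against gene length in bases (log axis), by list, with the medians of all tested genes in 5 length bins. The medians climb from -0.42 under 2000 bases to 0.25 at 8000 bases and over, and the mitotic kinesins lie above the bin medians of their lengths.

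Genes that work with the members were counted by the same test. Of 11 spindle and cytokinesis partners 8 rose and 0 fell (median 0.32). Anln, the anillin of the cleavage furrow, had 81.2 and 73.0 CPM in irradiated A and B, against 31.3 and 29.2 CPM in unirradiated A and B (log2 fold change 1.34, SE 0.0755), and Ect2 had 54.5 and 49.2 CPM in irradiated A and B, against 26.4 and 31.6 CPM in unirradiated A and B (log2 fold change 0.85). Prc1, which bundles the central spindle and recruits Kif4, rose by 0.72. Kifc1, a minus-end spindle kinesin whose name the rule does not take, had 40.4 and 43.3 CPM in irradiated A and B, against 43.2 and 41.7 CPM in unirradiated A and B (log2 fold change -0.02, adjusted p = 0.833). Spindle checkpoint genes were higher in 7 of 9 cases and lower in 0, with a median of 0.38, led by Bub1 (log2 fold change 0.97), Kntc1 (log2 fold change 0.96), Zwilch (log2 fold change 0.51) and Ttk (log2 fold change 0.46). Removing the length trend left 7 spindle and cytokinesis partners and 5 checkpoint genes higher, and 0 lower in either list.

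The KMN network, which grips microtubules for the centromere proteins, had 5 of 10 genes higher and 1 lower, with Dsn1 (log2 fold change 0.93), Nsl1 (log2 fold change 0.74), Nuf2 (log2 fold change 0.67) and Knl1 (log2 fold change 0.67) up and Zwint (log2 fold change -0.21) down. The Zwint call was lost without either A library and with no filter on low counts. Removing the length trend gave 5 higher and 2 lower in the KMN network, and 4 higher and 2 lower of the chromosomal passenger and cohesion genes below. A list of 5 genes, the CENP-A loading factors together with Itgb3bp, had 3 higher and 2 lower, or 2 higher and 1 lower without the length trend. Hjurp, the chaperone that delivers CENP-A, had 178 and 170.5 CPM in irradiated A and B, against 114 and 113 CPM in unirradiated A and B (log2 fold change 0.61, SE 0.0520), although Cenpa itself did not pass. Oip5, a loading factor, fell by 0.59, a call lost with DESeq2, without irradiated B and with the length trend removed. Itgb3bp, which is CENP-R of the inner kinetochore and no loading factor, fell by 0.79. The chromosomal passenger and cohesion genes were higher in 4 of 6 cases and lower in 1, with Sgo2a at 0.86, Incenp at 0.60, Sgo1 at 0.54 and Aurkb at 0.48, while Birc5 fell by 0.20, a call lost with DESeq2, with no filter on low counts and without irradiated A, unirradiated A or unirradiated B.

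Proliferation genes are set beside the mitotic kinesins because these motors are made in dividing cells. Of 18, 12 rose and 3 fell (median 0.30), and 12 rose and 2 fell with the length trend removed. The 10 genes of the G1 and S phases had 8 higher and 2 lower (median 0.57), and the 8 of G2 and M, when mitotic kinesins act, had 4 higher and 1 lower (median 0.14). Mki67 had 250.5 and 228 CPM in irradiated A and B, against 195 and 194 CPM in unirradiated A and B (log2 fold change 0.30, SE 0.0483), and Top2a had 237 and 219 CPM in irradiated A and B, against 117 and 117 CPM in unirradiated A and B (log2 fold change 0.96). Ccne2 rose by 1.05, Mcm3 by 1.01 and Mcm5 by 0.97 on the log2 scale. Ccnb1, the cyclin of mitosis, had 60.02 and 59.6 CPM in irradiated A and B, against 57.3 and 60.8 CPM in unirradiated A and B (log2 fold change 0.02, adjusted p = 0.789), and Cdc20 fell by 0.51. The part of proliferation in the kinesin values was not tested.

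Of 14 tested adaptors and partners of the transport motors 4 rose, 7 fell and 3 did not pass (median -0.17). With the length trend removed 2 rose and 9 fell. Klc1, a light chain of kinesin-1, had 89.2 and 85.8 CPM in irradiated A and B, against 98.4 and 112 CPM in unirradiated A and B (log2 fold change -0.26, SE 0.0594). Kifc2, itself a kinesin whose name the rule does not take, fell by 0.91, Mapk8ip3 by 0.48 and Mapk8ip1 by 0.45 on the log2 scale. Kifc3 of this list is also a kinesin and did not pass (log2 fold change -0.08, adjusted p = 0.328). Of 15 tested genes of dynein and dynactin 4 rose and 8 fell (median -0.26). Dynein is the motor that runs the other way, and dynactin, with Dctn names, is its partner complex. Dynlt1a fell by 1.12, Dynll1 by 0.65, the dynactin gene Dctn3 by 0.50 and Dynlt1b by 0.46 on the log2 scale. With the length trend removed 2 rose and 7 fell.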

How the data were processed

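The authors deposited whole-number counts per gene, not normalized, with a gene length per the file headers. STAR 2.5, HTSeq 0.6.1, DESeq2 and the mm10 genome are named in the submitters' processing notes, and no source used here gives the settings or annotation release. The kit did not mark strand, per the labels' protocols. Members were all rows that matched the name rule, and levels are given for those with a mean of at least 1 CPM; of partner lists, up to 4 called genes with the largest change and a few fixed names (Ccnb1, Cdc20, Zwint and Birc5 were named after their values were seen). Members and lists were chosen with earlier results of these data known.

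Counts were tested with edgeR 4.0.16 in R 4.3.3 (filterByExpr, TMM, quasi-likelihood fit and test), with Benjamini-Hochberg adjustment over 15961 genes at 0.05. SE was obtained by dividing the size of a log2 fold change by the root of its F statistic. The fit had 2 residual and 59.8 prior degrees of freedom. An exact rank test of 2 against 2 libraries cannot go below a two-sided p of 0.333, so none was used. Within pairs the median chi-square per gene was 2.14 times (irradiated) and 2.11 times (unirradiated) that of counting alone, so all libraries were kept as replicates. The code was tested on simulated data for this comparison (15604 genes), where 25 of 50 genes changed 1.25-fold and 42 of 50 changed 2-fold were recovered. Alternatives were other scalings, filters and thresholds, DESeq2 1.42.0, a replicate block, each library left out and removal of a loess trend on gene length; removal of length and GC trends together was added after seeing the data. Promoters came from RefSeq tables on GRCm38.p6.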

Additional observations from a re-analysis of the deposited data

How the results depend on the processing

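The 12 mitotic kinesins were all higher under both other scalings, DESeq2, both filters and the replicate block, 11 without irradiated B, 10 with the length trend removed and 11 with length and GC removed. Against a 1.5-fold change 2033 of all genes were higher and 1753 lower, with 11 members higher and 2 lower, 6 mitotic kinesins higher, 3 transport kinesins higher and 2 lower, 2 other kinesins higher and 0 lower, and 0 centromere proteins higher and 0 lower. With the length trend removed 17 members and 8 transport kinesins were lower and 3 other kinesins higher; with length and GC removed 17 members and 7 centromere proteins were lower and 3 other kinesins higher. Kif5b reversed to -0.059 (length trend removed) and -0.10 (length and GC removed). DESeq2 called 3 other kinesins higher, and leaving out 1 library gave 3 to 5. With the replicate letter as a block 25 members were higher and 11 lower. Deviations of same-lettered libraries correlated at 0.0116. With 2 libraries per group the value for A with B is its mirror image, -0.0116. This correlation therefore cannot tell whether same-lettered libraries share an origin. At this depth 1 count was worth 0.0403 to 0.0809 CPM, so levels of members near 1 CPM, such as Kif27, rest on few counts.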
